A study of Rattus rattus with 8 samples.

Results

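Ahnak is a very large scaffold protein beneath the plasma membrane. It binds the complex that S100a10 (also called p11) forms with annexin A2, and this assembly has been tied to the membrane-cytoskeleton cortex, to calcium channel regulation and to membrane repair. Annexins are proteins that bind acidic phospholipids when calcium rises. They are abundant in keratinocytes, the main cell type of the hair follicle epithelium. The genes described here were given by their RefSeq accessions: Ahnak (NM_001191951), S100a10 (NM_031114), Anxa1 (NM_012904), Anxa2 (NM_019905) and Anxa5 (NM_013132). All 5 genes had a probe, among 26997 accessions and other target names on the array, and they were covered by 8 probes. Ahnak had 4 probes and each of the other genes 1. Ahnak was selected by the study for qPCR from the differences between blast and sham on these same arrays, and the other genes were then grouped with it by function. The difference between blast and sham is therefore given for these genes as a description with no test.

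Whisker follicles were pulled from adult male Sprague-Dawley rats, and the follicles of a rat were pooled, so that 1 array stands for 1 rat. The labels name the organism as Rattus rattus, whereas the study's methods describe laboratory Sprague-Dawley rats, a strain of Rattus norvegicus. Sham control rats (C1, C2 and C3) had a shock wave pressure of 0 kPa in the labels. Another 5 rats were exposed to a single simulated blast, at 145 kPa (M2 and M3), 175 kPa (H1) or 200 kPa (XH1 and XH3). Rats were anaesthetized with isoflurane for exposure, and the study compared the time to revive from it between sham and blast rats. The rats were observed for a shorter or a longer period before the follicles were taken, and which rat had which period is not given in the sources used here. Follicle, epidermal and other cell markers could not be matched by gene symbol and were not analysed here, so the label of the tissue was not checked against them. In pooled follicles, fewer cells of a type and less RNA per cell cannot be told apart.

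The arrays of the 8 rats differed in how much signal they gave. The share of spots well above background was 73.0% for C1, 66.5% for C2 and 68.8% for C3. It was 70.9% for M2, 65.9% for M3, 69.1% for H1, 69.1% for XH1 and 68.9% for XH3. C1 thus had the largest share and M3 the smallest, and C1 also had the highest median processed signal (280.5, against 90.9 for C2). All 8 member probes were well above background on 8 arrays and were saturated on 0 arrays, so none of their levels is only a bound. Levels are log2 intensities after quantile normalization. They are compared between rats for a given probe and never between probes, since probes differ in how brightly they report a transcript.

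Ahnak, the scaffold of the group, was represented by its brightest probe, A_64_P082401. Its log2 intensity was 16.57 in C1, 15.67 in C2 and 15.82 in C3. In the blast rats it was 15.98 in M2, 14.79 in M3, 15.85 in H1, 15.53 in XH1 and 15.49 in XH3. C1 was highest and M3 lowest, and the groups overlapped: 3 of 5 blast rats were below all sham rats, and the other 2 were within the sham range. The means were 16.02 ± 0.48 (SD, n = 3) and 15.53 ± 0.46 (SD, n = 5), a log2 fold change of -0.49 (standard error 0.32), which is about the spread between rats of a group. Both C1 and M3 weigh on this value. It was -0.22 without C1, -0.31 without M3, and -0.034 without both rats, a combination chosen after the data were seen. This fall toward 0 was seen on the brightest probe only. Without both rats Ahnak's other probes, described below, gave -0.40 (A_44_P579385), -0.30 (A_64_P082393) and -0.45 (A_64_P147204).

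The other probes of Ahnak carried the same accession but ordered the rats differently. Probe A_64_P147204 gave 9.71 in C1, 9.65 in C2 and 9.55 in C3, and 9.05 in M2, 8.92 in M3, 9.16 in H1, 9.08 in XH1 and 9.30 in XH3. The sham rats lay close together and all 5 blast rats were below them. The log2 fold change was -0.53 (standard error 0.12), or a level 0.69 times that of sham rats, and when single rats were left out it stayed between -0.58 and -0.49. Probe A_44_P579385 gave 11.85, 11.78 and 11.87 in C1, C2 and C3, and 11.10 in M2, 11.59 in M3, 11.48 in H1, 11.46 in XH1 and 11.67 in XH3. Again all 5 blast rats were below all sham rats, with a log2 fold change of -0.37 (standard error 0.15) that ranged from -0.43 (without XH3) to -0.28 (without M2). On this probe the lowest rat was M2 and not M3.

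The remaining Ahnak probe, A_64_P082393, gave 10.16, 10.37 and 10.17 in the sham rats and 9.68 in M2, 10.60 in M3, 10.30 in H1, 9.84 in XH1 and 10.04 in XH3. Here M3 was the highest of the 8 rats, and 3 blast rats were below and 1 above all sham rats. Its log2 fold change was -0.14 (standard error 0.22), smaller than its standard error. When single rats were left out it ranged from -0.27 (without M3) to -0.037 (without M2). The direction was lower in blast rats for all 4 probes under every scaling tried, but a size for Ahnak thus depends on the probe. The sequences of the probes were not used here, and which part of the Ahnak transcript each of them reads is not known.

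Across all probes, 0 of 30366 (0%) had an adjusted p under 0.05 between blast and sham in limma, while 358 were higher and 492 lower at an unadjusted p under 0.05. The lower ones make up 1.62% of the probes. All 5 blast rats lay below all sham rats in 315 of 30217 probes (1.04%) and in 2 of the 8 member probes, A_64_P147204 and A_44_P579385. As Ahnak was chosen from this contrast, nothing is read from these counts. The median log2 fold change was -0.35 over the 8 member probes, -0.32 over the 5 genes by their brightest probes and 0.0045 over all probes tested.

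S100a10, the S100 protein that pairs with annexin A2 and takes part in binding Ahnak, had a log2 intensity of 15.32 in C1, 14.23 in C2 and 14.55 in C3. The blast rats had 14.88 (M2), 13.11 (M3), 14.53 (H1), 15.09 (XH1) and 14.55 (XH3). The groups overlapped, with 4 of 5 blast rats within the sham range and M3 alone below it. The means were 14.70 ± 0.56 (SD, n = 3) for sham and 14.43 ± 0.77 (SD, n = 5) for blast, and the log2 fold change was -0.27 (standard error 0.47). It was 0.042 without C1 and 0.062 without M3, so the sign turned when either rat was left out.

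Anxa2, the annexin of the same complex, had 16.80 in C1, 15.86 in C2 and 15.77 in C3, and 15.61 in M2, 15.12 in M3, 16.36 in H1, 16.22 in XH1 and 15.79 in XH3. C1 was again highest and M3 lowest, and 3 of 5 blast rats were within the sham range. The log2 fold change was -0.32 (standard error 0.35), and it was 0.0062 without C1 and -0.060 with array quality weights. The ratio of S100a10 to Anxa2 within an array removes only what both probes share to the same degree. Its log2 value lay at -1.48, -1.62 and -1.22 in C1, C2 and C3, and at -0.73 in M2, -2.00 in M3, -1.83 in H1, -1.13 in XH1 and -1.24 in XH3. As the probes report on different scales, only the differences between rats can be read. The blast rats held both ends of the ratio, M3 the lowest and M2 the highest, although both had the same pressure, and the group means differed by 0.054 on the log2 scale, against a spread of 0.44 (SD within groups).

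Anxa1, an annexin known as a glucocorticoid-induced mediator that limits inflammation, had 15.96 in C1, 15.16 in C2 and 15.02 in C3. After blast it was 15.27 in M2, 13.77 in M3, 15.23 in H1, 15.49 in XH1 and 14.98 in XH3. M3 stood more than 1 log2 unit below every other rat, while 3 of the 5 blast rats were within the sham range. The log2 fold change was -0.43 (standard error 0.42), -0.14 without C1, -0.13 without M3 and -0.056 with array quality weights. Without C1 and M3 together the log2 fold changes were 0.37 for S100a10, 0.18 for Anxa2 and 0.16 for Anxa1, that is, on the other side of 0.

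Anxa5, which binds phosphatidylserine and is used as a probe of dying cells, had 9.26, 9.35 and 8.64 in C1, C2 and C3, and 9.25 in M2, 9.15 in M3, 9.31 in H1, 9.26 in XH1 and 8.85 in XH3. C3 was lowest and all 5 blast rats were within the sham range. The log2 fold change was 0.081 (standard error 0.20), or 1.06-fold, and it was -0.14 without C3. Thus 4 of the 5 genes were lower and 1 higher in blast rats by their brightest probes, against 14866 lower and 15500 higher among the 30366 probes tested. This split of the 5 genes was the same under each scaling tried, but not in every other setting. S100a10 was higher in blast rats with array quality weights (0.047), without C1 and without M3, Anxa2 was higher without C1, and Anxa5 was lower without C3 and within the first slide row (-0.023). Without C1 and M3 together 1 of the 5 genes, Ahnak, was lower and 4 were higher.

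**Figure D1:**
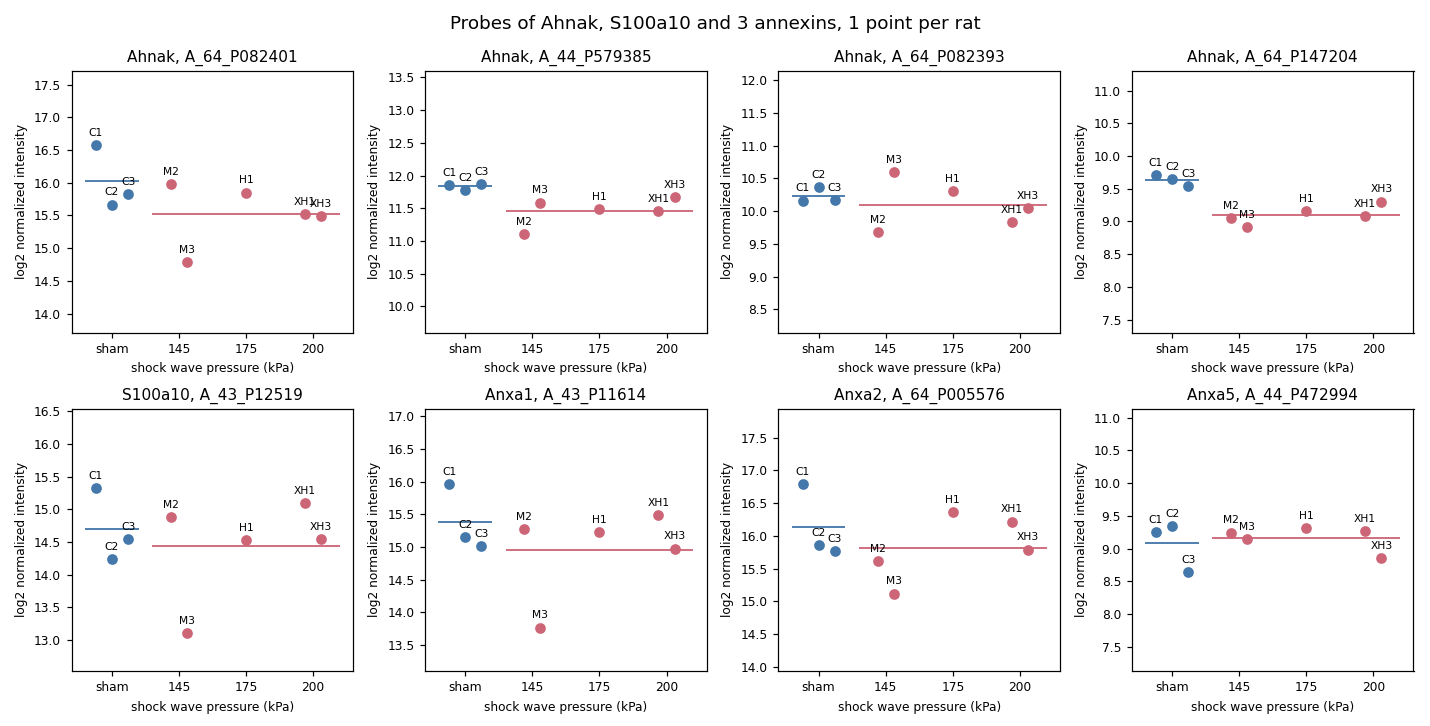
Log2 normalized intensity of the 8 member probes (y axis, each panel spanning 4 log2 units) by shock wave pressure in kPa (x axis), with 1 point per rat, sham rats in blue and blast rats in red, and a horizontal line at the mean of the 3 sham or the 5 blast rats. Ahnak's probes A_44_P579385 and A_64_P147204 have all 5 blast rats below the sham rats, while on the brightest Ahnak probe, S100a10, Anxa1 and Anxa2 C1 is highest and M3 lowest.

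The arrays lay on 1 slide in 2 rows of 4, with sham and blast rats in each row. Within the first row (C1, C2, M2 and H1) the blast minus sham difference was -0.20 for Ahnak's brightest probe, -0.073 for S100a10, -0.31 for Anxa1, -0.34 for Anxa2 and -0.023 for Anxa5. Within the second row (C3, M3, XH1 and XH3) it was -0.56, -0.30, -0.27, -0.062 and 0.44 in the same order. Ahnak's probe A_64_P147204 gave -0.57 and -0.45 in these rows, A_44_P579385 gave -0.52 and -0.30, and A_64_P082393 gave -0.27 and -0.0067. With the row as a block the log2 fold changes were -0.36 for Ahnak, -0.17 for S100a10, -0.29 for Anxa1, -0.22 for Anxa2 and 0.18 for Anxa5.

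Whether the genes followed the strength of the shock wave was asked among the 5 blast rats alone, without the sham rats. The study found its genes by a one-way analysis of variance, and its methods do not state whether the pressures were pooled. The slope is thus not known to be independent of the choice of Ahnak. The slope of the log2 intensity per 50 kPa was 0.12 (standard error 0.42) for Ahnak's brightest probe, 0.75 (0.59) for S100a10, 0.66 (0.53) for Anxa1, 0.60 (0.35) for Anxa2 and -0.12 (0.20) for Anxa5. None of these passed the threshold: the limma-adjusted p over 30236 probes was 0.9999 for each of the 8 member probes. Among all probes, 0 (0%) had an adjusted p under 0.05 and 860 (2.84%) an unadjusted p under 0.05, and 0 of the 8 member probes were among the latter. The median slope was 0.60 over the 5 genes, 4 of them positive, and 0.031 over all probes. Of the 30236 probes, 16490 had a positive and 13746 a negative slope. The slope turned to -0.0060 for Ahnak's brightest probe with 75th percentile scaling, and to 0.077 for Anxa5 without XH3.

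The positive slopes of Ahnak, S100a10 and Anxa1 rest on the level of M3, and that of Anxa2 was smaller without this rat. At 145 kPa, M2 exceeded M3 by 1.77 log2 units for S100a10, 1.51 for Anxa1, 1.19 for Ahnak's brightest probe and 0.49 for Anxa2. At 200 kPa, XH1 exceeded XH3 by 0.54 for S100a10 and 0.52 for Anxa1, and by 0.041 for Ahnak. For S100a10, Anxa1 and Ahnak's brightest probe, M2 and M3 thus differed by more than the means at 145 and 200 kPa did, while for Anxa2 they differed by less. Both rats at 200 kPa lay in the second row of the slide, and with the row as a block the slopes were 0.49 for Ahnak, 1.16 for S100a10, 1.08 for Anxa1, 0.89 for Anxa2 and -0.047 for Anxa5, with limma-adjusted p between 0.807 and 0.986. Without M3 the slope was -0.015 for S100a10, -0.033 for Anxa1, -0.45 for Ahnak and 0.29 for Anxa2, and with all 8 rats, sham included, it was negative for these 4 genes. For the 2 Ahnak probes on which all blast rats were below sham, the mean difference from sham was -0.65 at 145 kPa, -0.47 at 175 kPa (H1 alone) and -0.44 at 200 kPa for A_64_P147204, and -0.49, -0.35 and -0.27 for A_44_P579385. Their slopes of 0.19 (standard error 0.15) and 0.20 (standard error 0.21) were within 2 standard errors of 0, and A_64_P082393 had a slope of -0.18 (standard error 0.34).

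How the genes varied together between rats was asked apart from the contrast with sham. After the mean of each exposure group was subtracted, Pearson's r over the 8 rats was 0.97 for S100a10 and Anxa1, 0.89 for Ahnak and Anxa1, 0.87 for Ahnak and S100a10, 0.86 for Anxa1 and Anxa2, 0.78 for S100a10 and Anxa2 and 0.77 for Ahnak and Anxa2. Spearman's rho for these pairs lay between 0.76 (S100a10 and Anxa2) and 0.93 (S100a10 and Anxa1). Rats were permuted within their exposure group (720 permutations, two-sided, smallest possible p 0.00139). The exact permutation p of r ranged from 0.00972 for S100a10 and Anxa1 to 0.05 for Ahnak and Anxa2, and that of rho from 0.00972 to 0.0542. Adjusted over the 10 pairs of the 5 genes, these exact p were 0.0806 to 0.0833 for r and 0.0903 for rho. Thus 0 of the 10 pairs passed. With the mean of Ahnak's 4 probes in place of the brightest, r with Ahnak was 0.34 for S100a10, 0.44 for Anxa1 and 0.74 for Anxa2. With 75th percentile scaling r of Ahnak and Anxa2 was 0.47. Each row of the slide holds 4 arrays, too few for a correlation within a row. With the means of slide row and group both subtracted over the 8 rats, an alternative added after the data were seen, r was 0.98 for S100a10 and Anxa1, 0.92 for Ahnak and S100a10, 0.86 for Ahnak and Anxa1, 0.83 for Anxa1 and Anxa2, 0.76 for S100a10 and Anxa2 and 0.73 for Ahnak and Anxa2. Permuting rats within row and group leaves 24 orders and a smallest p of 0.0417. The exact permutation p of r for these pairs lay between 0.0417 and 0.292, or adjusted between 0.139 and 0.486.

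The pairs that include Anxa5 had an r of 0.13 with S100a10, 0.26 with Ahnak, 0.33 with Anxa1 and 0.39 with Anxa2, and a rho of 0.17, 0.31, 0.48 and 0.50. Their exact permutation p was between 0.399 and 0.651 for r and between 0.321 and 0.726 for rho. Adjusted, it was between 0.550 and 0.651 for r and between 0.438 and 0.726 for rho. With slide row and group means subtracted, the r of Anxa5 turned negative with Ahnak (-0.39), S100a10 (-0.14) and Anxa1 (-0.024). With Anxa2 it was 0.14. Leaving out the 2 rats whose deviation from the group mean in the first gene lay farthest from the median deviation, with the group means of all 8 rats kept, gave an r of 0.93 for S100a10 and Anxa1 (M3 and C2 left out), 0.76 for Anxa1 and Anxa2 (M3 and C3), 0.69 for Ahnak and Anxa1, 0.65 for Ahnak and S100a10 and 0.44 for Ahnak and Anxa2 (each M3 and C1), and 0.56 for S100a10 and Anxa2 (M3 and C2). For the pairs of Anxa5 it gave 0.76 with S100a10, 0.22 with Ahnak, 0.13 with Anxa1 and 0.13 with Anxa2 (the last without C1 and H1). With C1 and M3 left out of every pair and the group means taken again over the 6 rats that remain, r was 0.62 for S100a10 and Anxa1, 0.43 for Anxa1 and Anxa2, and between -0.21 and 0.056 for the remaining 4 pairs without Anxa5. In the same setting the r of Anxa5 was 0.67 with Anxa1, the highest of the 10 pairs, 0.37 with Anxa2, 0.15 with Ahnak and -0.11 with S100a10. Without C1 and M3, the rats at its ends, the r of Ahnak with S100a10, Anxa1 and Anxa2 was thus 0.65, 0.69 and 0.44 with the means kept, and 0.051, 0.056 and -0.21 with the means taken again. Means kept over all 8 rats still hold the rats left out, so the deviations of the remaining rats carry their levels. For every pair above, the r with the means kept is thus not free of the left-out rats, and no stability is read from it.

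The levels were also set against the signal of the array, a relation looked at after the data were seen. Over the 8 rats, with group means subtracted, the share of spots well above background had an r of 0.93 and a rho of 0.95 with Ahnak's brightest probe (exact permutation p = 0.00278 and 0.00556, adjusted over 5 relations 0.0139 and 0.0278). With S100a10 r was 0.85 and rho 0.88 (exact permutation p = 0.0111 and 0.0139, adjusted 0.0278 and 0.0301). With Anxa1 r was 0.80 and rho 0.90 (exact permutation p = 0.0347 and 0.0181, adjusted 0.0579 and 0.0301), with Anxa2 0.70 and 0.76 (exact permutation p = 0.0917 and 0.0819, adjusted 0.115 and 0.102), and with Anxa5 0.095 and 0.17 (exact permutation p = 0.869 and 0.804, adjusted 0.869 and 0.804). With the mean of Ahnak's 4 probes in place of the brightest, r was 0.48. With the means of slide row and group both subtracted, r was 0.96 for Ahnak, 0.83 for S100a10, 0.77 for Anxa1, 0.65 for Anxa2 and -0.31 for Anxa5, and rho was 0.83, 0.86, 0.86, 0.48 and -0.19. Over the 24 orders within row and group the exact permutation p was between 0.0417 and 0.417 for r and between 0.0417 and 0.542 for rho, or adjusted between 0.0694 and 0.417 for r and between 0.104 and 0.542 for rho, and with so few orders an adjusted p under 0.05 was out of reach unless all 5 relations were at the smallest p. With the group means of all 8 rats kept and without C1 and C2, the arrays whose deviation in this share lay farthest from the median deviation, r was 0.96 for Ahnak, 0.90 for S100a10, 0.89 for Anxa1, 0.55 for Anxa2 and 0.24 for Anxa5. The means kept still hold C1 and C2, so no stability is read from these values. Without C1 and M3, and with the means taken again, r was 0.71 for Ahnak and 0.52 for S100a10, but -0.065 for Anxa1 and -0.53 for Anxa2, so that for these annexins the sign turned without those arrays. The part of array signal in the differences between rats was not tested beyond this relation.

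**Figure D2:**
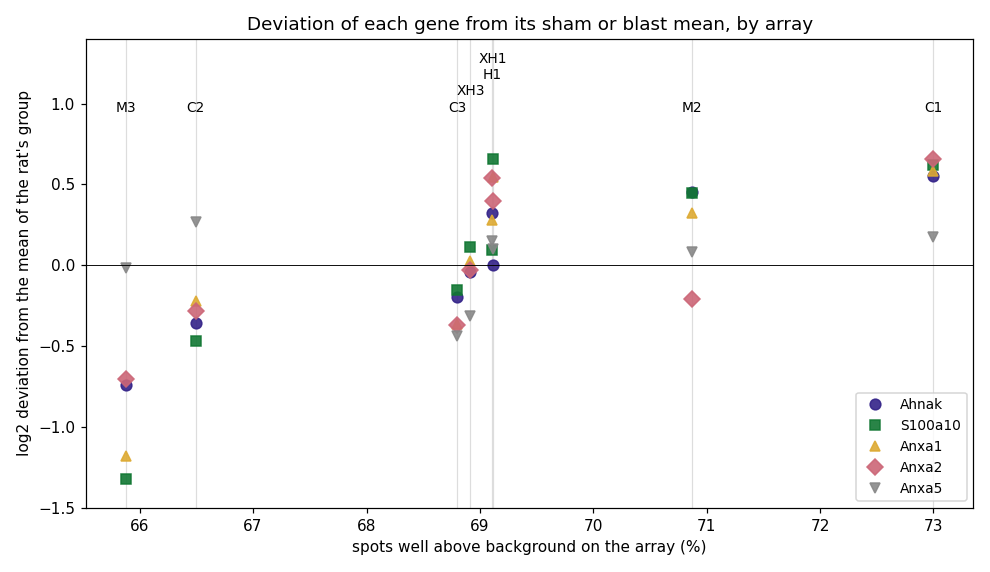
Deviation of each gene's log2 intensity from the mean of the rat's own group, sham or blast (y axis), against the percentage of spots well above background on the rat's array (x axis), with 1 symbol per gene and rat and the rat named at the top. Ahnak, S100a10, Anxa1 and Anxa2 are all lowest in M3, at 65.9%, and all above 0 in C1, at 73.0%, whereas Anxa5 shows no such order.

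Probes of other genes shared this order of rats. C1 was highest and M3 lowest in 1994 of the 17472 probes well above background on 8 arrays (11.4%) and in 5 of the 8 member probes, namely A_64_P082401 and A_64_P147204 of Ahnak and the probes of S100a10, Anxa1 and Anxa2. With group means subtracted, an r above 0.7 with Ahnak's brightest probe was seen in 15.6% of 17464 other such probes, and with S100a10, Anxa1, Anxa2 and Anxa5 in 23.5%, 19.5%, 9.28% and 1.56%. The median r with all other probes was 0.064 for Ahnak, 0.19 for S100a10, 0.12 for Anxa1, 0.0051 for Anxa2 and -0.069 for Anxa5. Among the 1281 of these probes with a mean log2 intensity of at least 14.53, the shares above 0.7 were 12.96% for Ahnak, 30.4% for S100a10, 19.6% for Anxa1, 4.45% for Anxa2 and 0.468% for Anxa5. Probes at the r of the member pairs themselves were not counted, and nothing particular to the genes is read from their correlations. The accessions most like Ahnak's brightest probe over the 8 rats were NM_001109236 (r = 0.99) and ENSRNOT00000051290 (r = 0.99), and those most like Anxa2 were NM_001012032 (r = 0.99) and ENSRNOT00000007403 (r = 0.99), out of 13107 RefSeq or Ensembl accessions. For this ranking group means were not subtracted, so its r includes the difference between blast and sham and is not on the scale of the r above. The files do not pair these accessions with gene symbols.

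The 4 probes of Ahnak were also set against each other. With group means subtracted, r of the brightest probe was -0.65 with A_64_P082393, -0.46 with A_44_P579385 and 0.50 with A_64_P147204 (exact permutation p = 0.0764, 0.307 and 0.254). Their rho was -0.64, -0.40 and 0.48 (exact permutation p = 0.0819, 0.332 and 0.278). Between the dimmer probes, r was 0.58 for A_44_P579385 and A_64_P082393, 0.26 for A_44_P579385 and A_64_P147204 and -0.27 for A_64_P082393 and A_64_P147204 (exact permutation p = 0.263, 0.618 and 0.649), and rho was 0.57, 0.095 and -0.048 (exact permutation p = 0.233, 0.858 and 0.951). Probe A_64_P082393 with S100a10 had an r of -0.85 and a rho of -0.81 (exact permutation p = 0.00694 and 0.0194), and r was -0.65 without M3 and M2. The same probe had an r of -0.74 with Anxa1, -0.33 with Anxa2 and 0.070 with Anxa5, and a rho of -0.69, -0.33 and 0.024. Probe A_64_P147204 had an r of 0.54 with S100a10, 0.60 with Anxa1, 0.60 with Anxa2 and -0.0030 with Anxa5, and a rho of 0.43, 0.52, 0.76 and 0.38. For A_44_P579385 r was -0.35, -0.36, 0.010 and -0.42 in the same order, and rho -0.36, -0.50, -0.19 and -0.62. The exact permutation p of these 11 further relations lay between 0.0597 and 0.996 for r and between 0.0556 and 0.964 for rho. Without the 2 rats farthest out in the Ahnak probe, r of A_64_P082393 was -0.35 with Anxa1, -0.092 with Anxa2 and 0.31 with Anxa5 (M3 and M2 left out). That of A_64_P147204 was 0.15, 0.49, 0.77 and 0.75 (XH3 and M3), and that of A_44_P579385 was -0.55, -0.63, -0.42 and -0.43 (M2 and XH3). With the 2 rats farthest out in the first probe left out in the same way, r of the brightest probe was -0.39 with A_64_P082393, -0.52 with A_44_P579385 and -0.033 with A_64_P147204 (M3 and C1 left out). It was 0.58 for A_44_P579385 and A_64_P082393 and -0.75 for A_44_P579385 and A_64_P147204 (M2 and XH3), and 0.18 for A_64_P082393 and A_64_P147204 (M3 and M2), so that 3 of these 6 pairs turned sign. Wherever rats were left out of the relations of Ahnak's probes, the group means of all rats were kept, so the left-out rats still weigh on r. These relations were also computed after the data were seen. Adjusted over the 18 of them, the exact permutation p for A_64_P082393 and S100a10 was 0.125 for r and 0.295 for rho, 0 of the 18 passed, and the other 17 had between 0.458 and 0.996 for r and between 0.295 and 0.964 for rho. The spread between rats of a group was 0.13 (SD) for A_64_P147204 and 0.18 for A_44_P579385, against 0.47 for the brightest Ahnak probe and a median of 0.39 over the 17472 probes. Only 1.11% and 5.34% of those probes varied less than these 2 probes. S100a10, at 0.71, varied more than 86.3% of them.

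The spot noise could be read for the probes with 2 spots an array. The median SD between the 2 spots was 0.018 log2 units for the brightest Ahnak probe and for Anxa1, 0.016 for S100a10, 0.014 for Anxa2, 0.026 for Anxa5 and 0.10 for A_64_P082393, which reached 0.21 on 1 array, more than its difference between blast and sham. Probes A_44_P579385 and A_64_P147204 had 1 spot per array, and their spot noise could not be measured.

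Hbb (NM_033234), the beta globin chain of red cells, was read beside these genes as the marker of blood at hand. Like Ahnak, it was among the genes the study chose for qPCR from the differences between blast and sham on these arrays, so its difference is a description as well. The log2 intensity of its brighter probe was 10.21 in C1, 13.96 in C2 and 11.64 in C3, and 17.42 in M2, 13.34 in M3, 15.37 in H1, 13.31 in XH1 and 14.43 in XH3. The blast rats were 2.84 log2 units higher on this probe (standard error 1.17) and 3.46 higher on the other one (standard error 1.15), a larger difference than that of any member probe. C1, the highest rat for Ahnak's brightest probe, S100a10, Anxa1 and Anxa2, was the lowest for Hbb, whereas M3, the lowest rat for those genes, was in the middle of the range. M2, the highest for Hbb, was the lowest rat on the Ahnak probes A_44_P579385 and A_64_P082393. The part of blood in the levels of these genes was not tested, and other markers of blood, leukocytes, fibroblasts, muscle and nerve were not analysed here. The same holds for the other annexins, the S100 partners, the membrane repair genes, the plasminogen system and the annexin A1 receptors.

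The study's primers for Ahnak are shown because they are the sequences at hand for Ahnak (NM_001191951), the gene whose probes disagreed. Where they lie relative to the probes is not known. The forward primer has 21 bases and the reverse primer 20. In lower case throughout, 5′ to 3′, they read as follows.
Ahnak forward: tcaggttcaaagggagaggga
Ahnak reverse: caggcagattgacatcccca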

How the data were processed

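One-colour Agilent arrays of rat hair follicles, 1 per rat, were analysed for 3 sham and 5 blast rats. The authors made the spot intensity with Agilent Feature Extraction, which subtracts background (version 10.7.1.1 in the file headers). The authors also deposited log2 values, quantile normalized over the arrays, which were used as an alternative. Scale and direction of that table were checked against the intensities (correlation with log2 intensity at least 0.9986 on each array).

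From the processed intensities, control spots and outlier spots were left out, log2 values were averaged over the spots of each probe, arrays were quantile normalized on the linear scale, and values under 3 were set to 3. A probe counted as well above background on an array when at least 0.5 of its spots were. Differences and slopes were fitted with limma 3.58.1 in R 4.3.3 over all probes, with Benjamini-Hochberg adjustment. Correlations used exact permutation of rats within exposure groups. Figures were drawn with matplotlib 3.10.9 in Python 3.11.15. Only the fits of differences and slopes were tested on simulated data, with independent noise for each probe. The number of arrays limits the precision.

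Symbols came with the list of accessions. The table of the Rattus rattus assembly Rrattus_CSIRO_v1 matched 0 of the 5 accessions, so lists fixed by symbol were not analysed here. The brightest probe stood for a gene, every probe was shown, Hbb was named as the red cell marker, and the 2 accessions most correlated with Ahnak and with Anxa2 were named. Members and lists were chosen with earlier results of these data known.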

Additional observations from a re-analysis of the deposited data

Results flagged for a closer look

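Among the 5 blast rats, M3 was far from the others for S100a10 (NM_031114). Its log2 intensity was 13.11, and the next lowest blast rat, H1, was at 14.53. This gap is 0.716 of the whole range of the blast rats. Each of the 8 member probes, the 2 probes of Hbb and 6 ratios between member probes was looked at in this way, and 1 was far enough from the others to be listed here, where chance lists about 1 in 20 groups. M3 also had the smallest share of spots well above background (65.9%). The part of array signal in its level of S100a10 was not tested.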

How the results depend on the processing

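The log2 fold changes of Ahnak, S100a10, Anxa1 and Anxa2 were negative under all 5 alternative normalizations and limits, within each slide row and with the row as a block. With array quality weights they were -0.31 for Ahnak, 0.047 for S100a10, -0.056 for Anxa1, -0.060 for Anxa2 and 0.25 for Anxa5. Within row 2 Anxa5 moved to 0.44. Leaving out single rats gave -0.67 to -0.22 for Ahnak, -0.50 to 0.062 for S100a10, -0.61 to -0.13 for Anxa1, -0.51 to 0.0062 for Anxa2 and -0.14 to 0.21 for Anxa5.

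The title number as a replicate block gave log2 fold changes of -0.49, -0.27, -0.42, -0.37 and 0.11 in the same order, with 850 probes at an unadjusted and 0 at an adjusted p under 0.05 in limma. Same-numbered rats did not deviate together (r from -0.68 to 0.50 over 7 pairs, 2 of 8 rats correlating best with their own number), so the numbers were not taken as pairs.

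Probes at an unadjusted p under 0.05 numbered 850, but 2246 with array quality weights, 442 with the filter on dim probes, which tests fewer probes, and 657 (without C1) to 1649 (without H1) with single rats left out. The adjusted count of 0 became 2 without C1, 3 without C3 and 2 without C1 and M3, a setting chosen after the data were seen. The analysis of variance named in the methods gave 683 and 0.

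Slopes turned sign with all 8 rats (-0.13 for Ahnak, -0.035 for S100a10, -0.084 for Anxa1, -0.057 for Anxa2, 0.016 for Anxa5), and for Ahnak with 75th percentile scaling (-0.0060). Without single blast rats they ranged from -0.45 to 0.57 for Ahnak, -0.015 to 1.49 for S100a10, -0.033 to 1.25 for Anxa1, 0.29 to 0.89 for Anxa2 and -0.25 (without XH1) to 0.077 (without XH3) for Anxa5. With the row as a block Ahnak, S100a10, Anxa1 and Anxa5 moved by over 1.5 times, to 0.49, 1.16, 1.08 and -0.047. The lowest adjusted p of these slopes in limma was 0.309 (without M2).

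Gene pairs past the adjusted permutation threshold numbered 0 in every setting except 6 when group means were not subtracted. Without C1 and M3 (smallest p 0.0208) and with row means subtracted (0.0417) few orders are left, so these counts of 0 say nothing of stability. S100a10 with Anxa5 turned sign with the deposited values (r -0.057), without C1 and M3 (-0.11) and without single rats (-0.011 to 0.36). Without C1 and M3 so did Ahnak with Anxa2 (-0.21) and S100a10 with Anxa2 (-0.082). With slide row and group means subtracted, Anxa5 turned sign with Ahnak (-0.39), S100a10 (-0.14) and Anxa1 (-0.024). The mean of Ahnak's 4 probes lowered r from 0.87 to 0.34 for Ahnak and S100a10. It lowered r from 0.89 to 0.44 for Ahnak and Anxa1, and from 0.77 to 0.74 for Ahnak and Anxa2. The smallest r among the 6 pairs without Anxa5 was 0.47 with 75th percentile scaling (Ahnak and Anxa2). The relation with array signal turned sign without C1 and M3 for Anxa1 (-0.065), Anxa2 (-0.53) and Anxa5 (-0.44), and for Anxa5 with the deposited values (-0.10), with row means subtracted (-0.31) and without single rats (-0.23 to 0.58). Where no construction is named, the cause was not tested.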
